A study of Homo sapiens with 15 samples.

Results

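The comparison described here asked what changed in open chromatin between a SETD2 knockout clone and a clone in which SETD2 had been put back. SETD2 is the enzyme that places 3 methyl groups on lysine 36 of histone H3 (H3K36me3) in mammalian cells. It travels with elongating RNA polymerase II, so the mark lies over the bodies of transcribed genes, and SETD2 is often inactivated in clear cell renal cell carcinoma. ATAC-seq measures accessible chromatin by letting the Tn5 transposase cut and tag DNA where it is not packed away, which happens mainly at promoters, enhancers and other regulatory sites. Each library was deposited as a list of peaks, the stretches where the peak caller MACS2 found more fragments than the surrounding background.

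The cells were RPTEC, human renal proximal tubule epithelial cells immortalized with hTERT. The 15 libraries of the series fell into 5 groups of 3, namely unedited wild-type cells (WT), knockout clones KO1 and KO2, and clones Rescue1 and Rescue2. The knockouts were made with CRISPR/Cas9 and a guide against exon 3 of SETD2. The rescue clones were knockout cells given full-length human SETD2 with a FLAG tag on a lentivirus and grown from single colonies, so they carried the edited gene as well as the transgene. The sources used here do not say which knockout clone each rescue came from. KO2 was taken for this comparison as the knockout that the rescue lines most resembled. KO2 and Rescue1 are each 1 clone, so clone and SETD2 status cannot be told apart, and any p-value measures only the spread between libraries.

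Peaks of the 3 Rescue1 and 3 KO2 libraries that shared at least 1 base were merged on chromosomes 1 to 22, X and Y, which gave 306991 regions. A region was called gained if it held a peak in 3 of 3 Rescue1 and 0 of 3 KO2 libraries, and lost in the reverse case. By this rule 7289 regions (2.37% of all regions) were gained and 15104 (4.92%) were lost, while 140032 (45.6%) held a peak in 6 of 6 libraries. The KO2 lists held 220315, 220784 and 254650 peaks and the Rescue1 lists 228768, 214061 and 208067. Their numbers overlapped (216965 ± 10651.7 in Rescue1 and 231916 ± 19689.3 in KO2, mean ± SD, n = 3 each, exact permutation test, two-sided, p = 0.4, where the smallest possible p is 0.1). The count was therefore repeated on equal lists, the 150000 peaks of each library with the best −log10 q, the caller's measure of confidence. These gave 197759 regions, 6928 gained (3.5%) and 9324 lost (4.71%). KO2 replicate 3 had the longest list, and without it 11639 regions were gained and 17192 lost. The rule is easier to meet with fewer libraries, so both counts rise whichever library is left out.

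The edited gene itself was looked at first. The guide, with its PAM in capitals, is shown because it places the edit, and it matched the plus strand of hg38 at chr3:47122997-47123019 in exon 3 of SETD2, a gene on the minus strand.
SETD2 guide: tagaatatgatgaccctcgtCGG
No peak lay over this site in any of the 15 libraries, so the lists do not check the edit. A single called region lay at SETD2, a gained region of 121 bp at chr3:47017636-47017756, whose −log10 q was 5.045, 4.398 and 5.799 in the 3 Rescue1 libraries. It covered all 102 bases of exon 20, given here in capitals on the minus strand with the flanking intron in lower case.
SETD2 exon 20 region: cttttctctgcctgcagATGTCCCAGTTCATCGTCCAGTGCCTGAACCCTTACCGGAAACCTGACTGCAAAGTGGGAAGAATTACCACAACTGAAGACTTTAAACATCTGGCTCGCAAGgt
Exon 15 was not a called region because KO2 also held peaks there, over 126, 102 and 134 bp, with −log10 q of 7.84, 8.29 and 9.36. In Rescue1 the exon 15 peaks spanned 157, 340 and 458 bp and reached −log10 q of 16.6, 11.4 and 21.9, all above those of KO2. No WT library held a peak in exon 15, and KO1 held 1 in each library, with −log10 q of 7.98, 3.196 and 7.83. Rescue2 reached 15.7, 13.3 and 6.28, so 1 of its libraries lay below KO2. At exon 20 the only other peak was in Rescue2 replicate 1 (−log10 q 2.91). The rescue clones also carry a full-length SETD2 transgene. Whether their peaks over these exons came from the gene or from the transgene cannot be told from the lists, and was not tested.

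Some of the best-ranked regions are printed as examples of gained and lost sites. Each line gives 150 bases around the peak summit on the plus strand of hg38, with AP-1 motifs (TGANTCA on either strand) in capitals. AP-1 is the FOS and JUN family of transcription factors, which binds widely at enhancers of epithelial cells. Both gained sites held peaks in 3 of 3 WT and 3 of 3 Rescue2 libraries. The first lies between genes, 125634 bp from the start of BUB3 at chr10:123287993-123288142, and the second in an exon of ATP9B at chr18:79361896-79362045.
Gained, near BUB3: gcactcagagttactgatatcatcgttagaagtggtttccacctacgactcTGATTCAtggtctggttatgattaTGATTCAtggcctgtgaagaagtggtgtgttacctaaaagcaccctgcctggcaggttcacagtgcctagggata
Gained, ATP9B: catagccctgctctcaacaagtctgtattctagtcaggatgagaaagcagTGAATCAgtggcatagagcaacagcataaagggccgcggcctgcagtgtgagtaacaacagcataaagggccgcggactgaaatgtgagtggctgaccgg
The lost sites below held peaks in 3 of 3 KO1 libraries and in no WT library. They lie in an intron of AGBL1 at chr15:86183891-86184040, where 3 of 3 Rescue2 libraries held a peak, and between genes at chr4:37096088-37096237, 148275 bp from the start of NWD2, where no Rescue2 library did.
Lost, AGBL1: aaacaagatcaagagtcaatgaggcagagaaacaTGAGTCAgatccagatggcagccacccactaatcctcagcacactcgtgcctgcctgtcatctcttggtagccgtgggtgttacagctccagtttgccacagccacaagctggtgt
Lost, near NWD2: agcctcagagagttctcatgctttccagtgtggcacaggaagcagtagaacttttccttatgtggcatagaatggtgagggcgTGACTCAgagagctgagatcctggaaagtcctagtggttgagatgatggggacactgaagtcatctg
AP-1 motifs were found in 31.6% of gained, 29.7% of lost and 29.5% of all regions. Most called regions thus lacked the motif that every site shown here holds. Its shares at matched GC content are given further on.

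Most called regions were weak peaks. In the Rescue1 libraries gained regions had a median −log10 q between 5.68 and 6.34, and in the KO2 libraries lost regions had one between 6.67 and 7.80, against 17.2 to 20.6 for regions held by all 6 libraries. Just outside the rule lay 7069 regions with 3 Rescue1 peaks and 1 KO2 peak, and 7239 with 3 KO2 peaks and 1 Rescue1 peak. How far the calls carried over to a library that did not choose them was read by leaving out 1 library of each clone, in 9 combinations. Gained regions chosen on the other 4 libraries held a peak in 69.3% to 78.9% of cases in the left-out Rescue1 library and in 14.3% to 35.7% in the left-out KO2 library. Lost regions did so in 10.5% to 16.9% of cases in the left-out Rescue1 library and in 69.8% to 89.4% in the left-out KO2 library. A peak list records only whether a site passed the caller's threshold, and a site open in fewer cells and a site less open in each cell cannot be told apart.

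The other clones, which took no part in the calls, were read next. Both rescue clones came from knockout cells given the same transgene, and their parent clones are not named. Rescue2 is therefore not known to be independent of Rescue1 by descent. Gained regions held a peak in 78.9%, 70.7% and 58.0% of cases in the 3 Rescue2 libraries and in 12.03%, 13.98% and 13.71% in the 3 KO1 libraries. Every Rescue2 library was thus far above every KO1 library, by 55.96 percentage points on average (69.2% ± 10.6 and 13.2% ± 1.05, SD, n = 3 each, exact permutation test, two-sided, p = 0.1, the smallest this design allows). For lost regions the order was the opposite, with 45.8%, 35.1% and 26.2% in Rescue2 and 66.9%, 69.6% and 74.2% in KO1. Here the difference was −34.5 points (35.7% ± 9.83 and 70.2% ± 3.68, SD, n = 3 each, exact permutation p = 0.1). Over all 306991 regions Rescue2 and KO1 held peaks at 67.7% and 61.1%. With equal lists the differences were 47.5 and −45.3 points. Regions that separated Rescue1 from KO2 therefore also separated the other rescue clone from the other knockout clone, in the same direction.

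**Figure D1:**
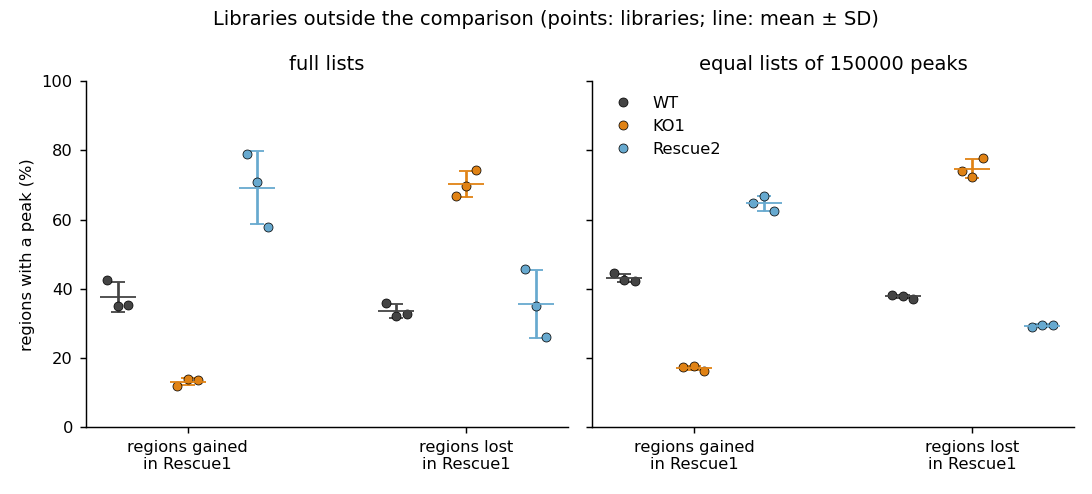
Share of the regions gained or lost in Rescue1 against KO2 (vertical axis, percent) that held a peak in each WT, KO1 and Rescue2 library, for full lists (left) and equal lists of 150000 peaks (right). Points are libraries and the bars are mean ± SD, and in both panels Rescue2 lies above KO1 at gained regions and below it at lost regions.

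The changes matched WT in part, in both directions. WT held 37.7% ± 4.25 of the gained regions and 33.6% ± 2.03 of the lost regions (SD, n = 3), against 56.8% of all regions. Of the gained regions, 1800 (24.7%) held a peak in 3 of 3 WT libraries and 3518 (48.3%) in none. Of the lost regions, 8488 (56.2%) held a peak in no WT library and 3631 (24.0%) in all 3. Among all regions 48.4% were held by 3 of 3 WT libraries and 34.4% by none, and among regions held by all 6 compared libraries 83.4% were held by 3 of 3 WT libraries. Both sets were less often in use in WT than regions at large. All regions, however, include the 45.6% held by all 6 compared libraries, which the rule keeps out of both sets. This contrast therefore cannot show how far the calls matched WT. Nearly the same share of gained (24.7%) and lost (24.0%) regions was held by 3 of 3 WT libraries. Gains in particular were split between sites that WT cells used and sites that they did not. Equal lists gave 30.6% of gained regions in 3 of 3 WT libraries and 53.0% of lost regions in none.

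The full pattern over the 5 groups sorted the regions further. A full WT-like pattern, with a peak in 3 of 3 WT and Rescue2 libraries and 0 of 3 KO1 libraries, was found at 961 gained regions (13.2%). A further 1036 gained regions (14.2%) had the same pattern except that WT held no peak, so they were shared by both rescue clones and by neither knockout nor WT. Only in Rescue1 were 588 gained regions (8.07%) found. Among lost regions, 2470 (16.4%) held a peak in 3 of 3 KO1 libraries and in none of WT or Rescue2. Lost regions held by 3 of 3 WT, KO1 and Rescue2 libraries, and so missing from Rescue1 alone, numbered 750 (4.97%). Gained regions in use in WT were also more often in use in Rescue2, with a peak in 3 of 3 Rescue2 libraries at 70.6% of those held by 3 of 3 WT libraries and at 37.1% of those held by none.

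The single best-ranked regions leaned differently. All 10 gained regions with the strongest support held a peak in 3 of 3 WT and 3 of 3 Rescue2 libraries. The best was a 353 bp region in an exon of TAF3, a subunit of the general transcription factor TFIID, at chr10:7827046-7827398, with −log10 q of 74.3, 67.9 and 65.3 in Rescue1. KO1 held this region and the ATP9B exon region in 3 of 3 libraries, and the other 8 in none. Among those 8 were 3 regions near BUB3 on chromosome 10, a pair in and near DHRSX, and 1 each near ZNF444 and in TRAPPC9. Of the 10 best lost regions, 6 held a peak in 3 of 3 WT libraries, among them sites near RGMA, TRPC6, ST6GAL2 and HS3ST4 and an intron of PTH2R. Over all lost regions that share was 24.0%, a difference that was not tested for so few regions.

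Gained and lost regions differed in where they lay. A promoter was taken as the 1 kb on each side of a protein-coding start, and 95% Wilson intervals cover counting error only. Promoters made up 12.7% of gained regions (928, interval 11.99% to 13.52%), 6.08% of lost regions (919, interval 5.71% to 6.48%) and 13.9% of all regions. Lost regions were more often intergenic, at 54.3% against 41.1% of gained and 43.2% of all regions. Introns held 42.0% of gained and 36.3% of lost regions, and exons 4.24% and 3.40%. Lost regions lay farther from genes, at a median of 47274 bp from the nearest protein-coding start, against 15851 bp for gained and 19453 bp for all regions. Of the gained promoter regions 28.8% held a peak in 3 of 3 WT libraries, against 65.2% of all promoter regions. Protein-coding loci with a gained promoter region numbered 946 of 19222 (4.92%), and those with a lost one 837 (4.35%).

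Chromosome 19 stood at both ends of the ranking of chromosomes. Gained regions were 5.46% of its 7308 regions, the highest share, and lost regions 1.71%, the lowest. The next highest share of gains was 3.62%, on chromosome 20, and the highest shares of losses were 6.35% on chromosome 18 and 6.17% on chromosome 13. With equal lists chromosome 19 gave 6.39% gained and 1.86% lost. It is a chromosome dense in genes and in clusters of zinc finger (ZNF) genes, which encode DNA-binding proteins that mostly repress transposable elements. Of its 399 gained regions 66 (16.5%) had a ZNF gene as the nearest protein-coding start, against 13.6% of its lost and 11.5% of all its regions. Promoters made up 26.8% of its gained regions and 35.8% of all its regions. WT held 39.3% of its gained regions in 3 of 3 libraries, against 23.8% of gained regions on other chromosomes. Among all regions, however, WT also held more on chromosome 19 in 3 of 3 libraries, at 56.8% against 48.2% elsewhere. KO1 held a peak in none of its libraries at 87.2% of the gained regions on chromosome 19 and at 74.5% of those on other chromosomes.

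**Figure D2:**
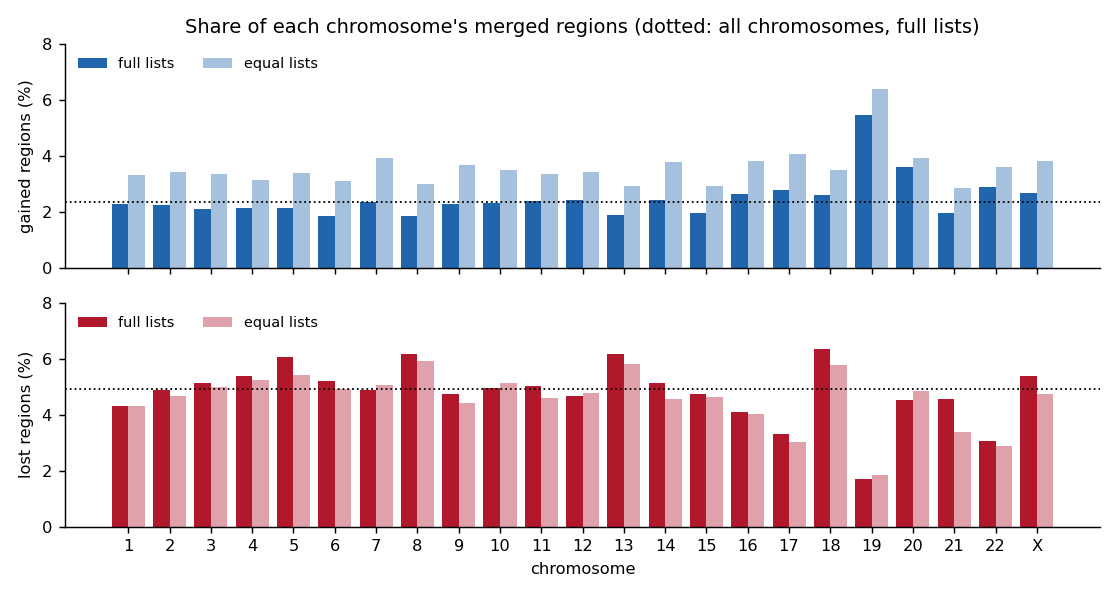
Percent of each chromosome's merged regions that were gained (top) or lost (bottom) in Rescue1 against KO2, for full lists (dark bars) and equal lists (pale bars). The dotted lines mark 2.37% and 4.92% over all chromosomes, and chromosome 19 has the tallest gained bar and the shortest lost bar.

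Calls of the same kind lay next to each other along the chromosome. Of 13819 pairs of neighbouring called regions within 100 kb, 2665 (19.3%) were both gained, 7921 (57.3%) both lost and 3233 (23.4%) 1 of each, where gained regions made up 32.6% of all called regions. In 1 Mb windows with at least 30 regions, of which there were 2583, the median was 1.83% gained and 3.85% lost, while single windows reached 48.4% and 50%. The windows below were chosen by these shares, so only their WT, KO1 and Rescue2 values were not part of the choice.

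The window from 79 Mb on chromosome 18 held ATP9B, a putative phospholipid flippase, and NFATC1, a calcium-responsive transcription factor. There 36 of 120 regions were gained and 0 lost, with 31, 32 and 39 regions occupied in KO2 and 95, 90 and 88 in Rescue1. Rescue2 occupied 94, 92 and 80 of these regions, WT 70, 61 and 59, and KO1 35, 36 and 34, so WT lay between the rescues and the knockouts. The window from 56 Mb on chromosome 19, with ZSCAN5A, ZIM2, NLRP5 and ZNF genes, had 15 of 46 regions gained. KO1 occupied 12, 14 and 15 of them, WT 37, 33 and 36 and Rescue2 42, 37 and 36, so here WT and Rescue2 lay together. In the window of NEGR1 on chromosome 1, from 71 Mb, 14 of 56 regions were gained, but WT occupied 10, 10 and 9, below the 42, 39 and 37 of Rescue2 and not above the 14, 21 and 19 of KO1. The window of MALRD1 on chromosome 10, from 19 Mb, gained 10 of 33 regions and went against the other clones. KO1 occupied 21 regions in each library, Rescue2 11, 7 and 5, and WT 1 in each library.

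Among windows of loss, the one from 92 Mb on chromosome 6 had lost 27 of its 54 regions. KO2 occupied 43, 36 and 45 of them and Rescue1 6, 5 and 7. Rescue2 was low as well at 15, 10 and 10, whereas KO1 occupied 34, 35 and 36 and WT 30, 25 and 29, so the loss took both rescues below WT. The window of AGBL1 on chromosome 15, from 86 Mb, lost 20 of 40 regions, and there WT was low too, at 9, 7 and 9. The window from 5 Mb on chromosome 2 with SOX11, a transcription factor of neural progenitors, lost 14 of 36 regions. KO1 occupied 30, 28 and 28 of these, Rescue2 13, 11 and 7, and WT a single region in each library. Loss in Rescue1 thus met WT in some windows and left it in others.

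Long genes collected the most calls. Among gene loci, taken as the gene body and 10 kb on each side, 4466 of 19222 protein-coding loci (23.2%) held at least 1 gained region and 5014 (26.1%) at least 1 lost region. Among the genes with the most gained regions were TRAPPC9, a subunit of a vesicle tethering complex (25 of 98 regions), the cell adhesion gene CDH4 (19 of 104), ATP9B (17 of 29), the spindle checkpoint gene MAD1L1 (13 of 48) and EHMT1, a histone H3 lysine 9 methyltransferase (12 of 37). The most lost regions lay at DLG2, a synaptic scaffold protein (43 of 172), the neuronal catenin CTNNA2 (26 of 97), the calcium channel gene CACNA1E (24 of 62), the glycosyltransferase gene GALNT17 (23 of 51), the ion channel gene ASIC2 (21 of 133), AUTS2, a gene of neurodevelopment (19 of 25), and HPSE2 (19 of 64). The share of regions lost was 2.80% in genes under 50 kb, 3.28% from 50 to 200 kb, 4.24% from 200 to 500 kb and 6.87% in genes over 500 kb. The share gained ran from 2.88% to 2.40% over the same classes.

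To compare whole loci, the bases under peaks in each locus were summed, scaled to equal total length under peaks, and tested with limma. Of 17443 loci with a mean of at least 500 bases, 4327 (24.8%) were higher in Rescue1 and 1511 (8.66%) lower at an adjusted p under 0.05, so 74.1% of the called loci were higher. Without scaling, 1735 were higher and 1081 lower (61.6% higher). Most differences were small, with a median log2 difference of 0.30 at loci called higher and −0.37 at loci called lower, and 0.08 over all loci tested. Only 115 loci were higher and 203 lower by more than 1 on the log2 scale. In the other clones, 80.9% of the loci called higher had a Rescue2 mean above that of KO1, and 84.2% of those called lower had it below, against 49.4% above over all loci tested. For the loci beyond 1 on the log2 scale these shares were 97.4% and 91.6%.

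The locus with the smallest p among those higher in Rescue1 was WWOX, a large tumor suppressor gene at a common fragile site. It held 1032, 1256 and 1141 bases under peaks in KO2 and 6718, 5873 and 5755 in Rescue1, which is 5.00-fold (log2 difference 2.32, SE 0.078, limma adjusted p = 5.59e-18). The Rescue2 libraries held 7352, 7167 and 6650 bases, KO1 1365, 1271 and 1239, and WT 2380, 2421 and 2234, so both rescues exceeded WT. ATP9B rose from 1522, 1507 and 1564 bases in KO2 to 5603, 6294 and 5596 in Rescue1 (log2 difference 1.86, SE 0.068, adjusted p = 2.73e-17). Its WT libraries, at 6412, 6500 and 5945, overlapped Rescue1, and KO1 was lower at 3494, 3217 and 3355. TRAPPC9 rose from 10012, 8845 and 9661 to 18868, 19062 and 19478 bases (log2 difference 1.004, SE 0.041, adjusted p = 2.00e-16), with 16801, 17068 and 17190 in WT. EIPR1, a gene of endosomal trafficking, rose from 2169, 1922 and 2167 to 5983, 6114 and 6321 (log2 difference 1.51), and its WT libraries, at 6153, 6179 and 6504, overlapped Rescue1.

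DTD1, KCNAB2, KIF16B, NPHP4 and ZSCAN5A rose by 1.42 to 1.80 on the log2 scale. NPHP4, a cilium gene mutated in the kidney disease nephronophthisis, went from 1132, 1429 and 1020 bases to 4237, 4662 and 4188, with 3886, 3589 and 3924 in WT. In KO1 NPHP4 held 1155, 1180 and 1191 bases and in Rescue2 5117, 4648 and 4611. MALRD1 was the exception among the 10 loci. It rose from 977, 1222 and 1229 to 3641, 4260 and 4354 bases in Rescue1, but it was listed at 0 in each WT library, at 3885, 4412 and 3725 in KO1 and at 975, 750 and 674 in Rescue2. Neighbouring or overlapping loci such as KCNAB2 and NPHP4 share some of the bases summed.

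Among these loci the larger differences were losses. GALNT17 fell from 8877, 7881 and 8850 bases in KO2 to 1277, 1213 and 1423 in Rescue1, which is 6.15-fold lower (log2 difference −2.62, SE 0.069, limma adjusted p = 5.36e-20). WT held 855, 712 and 702 bases, KO1 7182, 6815 and 6877, and Rescue2 3965, 4026 and 3553. DLG2 fell from 25187, 25235 and 27763 to 12092, 10951 and 11186 (log2 difference −1.18, SE 0.040, adjusted p = 5.59e-18). Its WT and Rescue2 libraries, at 9651 to 10657 and 12420 to 13933, lay on either side of Rescue1, and KO1 was at 27028 to 27579. EYA1, a transcriptional cofactor of kidney progenitors, fell from 6109, 6317 and 6131 to 1483, 1684 and 1809 (log2 difference −1.84, SE 0.070, adjusted p = 5.40e-17). WT held 288, 88 and 199 bases at EYA1 and KO1 5788, 5638 and 5087, so Rescue1 moved toward WT without reaching it. NKAIN3 and TMEM132C fell as well, by 2.32 and 3.65 on the log2 scale, with KO1 on the side of KO2 in each.

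For CACNA1E, CCDC178 and PAPPA2 Rescue1 went below WT. CACNA1E fell from 11779, 12039 and 11852 bases to 3814, 4251 and 4438, whereas WT held 8799, 9370 and 9693. PAPPA2, a protease that releases insulin-like growth factors from a binding protein, fell from 8813, 8956 and 9470 to 3343, 3605 and 3023, with 5702, 6441 and 6469 in WT. AUTS2 followed neither pattern. It fell from 6209, 5781 and 6437 to 587, 472 and 712 bases (log2 difference −3.19, SE 0.096, adjusted p = 7.19e-19), while KO1 held 622, 652 and 769 and Rescue2 7842, 7592 and 7726, the reverse order in the other clones.

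**Figure D3:**
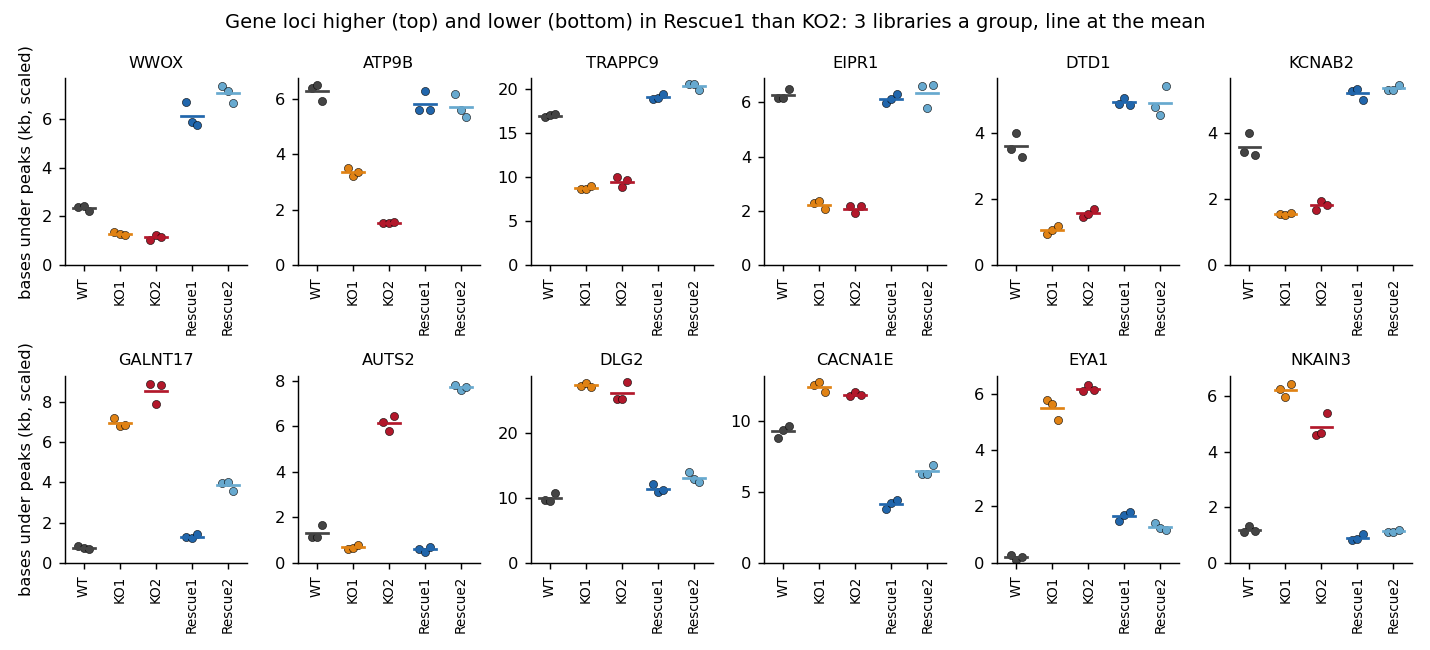
Bases under peaks (kb, scaled to equal total length) at the 6 loci with the smallest p among those higher (top row) and lower (bottom row) in Rescue1 than KO2, for 3 libraries of each of the 5 groups, with a line at the mean. At AUTS2 the KO1 and Rescue2 points stand in the reverse order to KO2 and Rescue1.

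Gene lists were read beside the 24.8% of all tested loci called higher and 8.66% called lower. Their counts moved with the processing. Of 142 list members called, 86 were not called without scaling, 67 were not called or not tested with equal lists, and 34 were called in every alternative fit. Among these 34, IL11 was called in the opposite direction in 1 fit. Counts without scaling and with equal lists are therefore given for each list, higher first and lower second. They are to be read beside the counts over all loci in the same setting, not beside 24.8% and 8.66%. Those were 1735 and 1081 of 17447 loci without scaling and 2598 and 1095 of 17026 with equal lists.

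In the epithelial list more loci were higher than lower. Loss of tight junctions, keratins and apical polarity marks the epithelial to mesenchymal transition (EMT), the process that the study followed in these cells. Of 28 loci in the list of epithelial adhesion and polarity genes 11 were higher (39.3%) and 1 was lower, with a median log2 difference of 0.13 against 0.08 over all loci. Without scaling 5 were higher and 1 lower, with equal lists 9 and 1, and without KO2 replicate 3 or Rescue1 replicate 1 7 and 1. The 4 lists of markers of other cell types had 9 of 20 tested loci higher (45%) and 2 lower, a share above that of the epithelial list, and no test compared the lists. The bases summed over the list ran from 111210 to 112705 in KO2, from 120831 to 121318 in Rescue1 and from 131319 to 134007 in WT. DLG1, a polarity scaffold, held 6506, 5877 and 5304 bases in KO2 and 7687, 7866 and 7895 in Rescue1 (log2 difference 0.41, SE 0.057, limma adjusted p = 3.27e-06), with 3 gained regions. The tight junction gene TJP3 held 1671, 2095 and 1804 bases in KO2 and 2745, 2563 and 2382 in Rescue1 (log2 difference 0.45, adjusted p = 0.00015), and 2975, 2682 and 2822 in WT. The tight junction genes CGN and OCLN also rose, by 0.34 and 0.29 on the log2 scale, as did the keratin genes KRT7 (0.35) and KRT18 (0.50) and the adhesion gene EPCAM (0.19). KRT18 and EPCAM were not called without scaling, KRT7 and KRT18 not without flanks, and EPCAM not without KO2 replicate 3 or Rescue1 replicate 2. The list's exception was ESRP1, an epithelial splicing regulator, which fell by 0.87. CDH1, which encodes E-cadherin, was not called, with 4155, 4045 and 3785 bases in KO2 and 3661, 3923 and 3903 in Rescue1, and WT was higher at 5873, 5841 and 6179.

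The transcription factors that drive EMT moved both ways. Of 16 loci 3 were higher and 3 lower (without scaling 0 and 1, with equal lists 3 and 2). PRRX1, a mesenchymal homeobox factor, fell from 2605, 2408 and 2414 bases to 1507, 1289 and 1393 (log2 difference −0.79, SE 0.082, limma adjusted p = 2.38e-08), and lost 3 regions, with the promoter among them. Its WT libraries, at 1870, 1668 and 2086, lay between, while Rescue2 was at 1241, 1477 and 1384 and KO1 at 2772, 2768 and 2547. ZEB2 and GSC fell by 0.19 and 0.41, and ZEB1, TWIST1 and TCF4 rose by 0.21, 0.30 and 0.19. None of these passed the test without scaling. SNAI1 and SNAI2 were not called, with log2 differences of 0.05 and 0.18, but without the flanks SNAI1 was called lower, at −0.63. In the list of mesenchymal matrix and adhesion genes 5 of 20 loci were higher and 4 lower, which became 1 and 3 without scaling and 0 and 2 with equal lists. DCN, which encodes the matrix proteoglycan decorin, fell from 1898, 1959 and 1920 bases to 1068, 1245 and 871, with 677, 717 and 742 in WT. VIM, which encodes vimentin, fell by 0.26, and CDH2, which encodes N-cadherin, differed by 0.00 (limma adjusted p = 0.95). PDGFRA and FAP fell by 0.20 and 0.32. In the other direction TAGLN rose by 0.53, and FN1, PDGFRB, SPARC and THY1 by 0.20 to 0.28. None of these 5 was called with equal lists.

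Kidney lists showed a few clear members rather than a shift. Among nephron progenitor factors 20 of 134 regions (14.9%) were lost, 16 of them at EYA1, and SALL1 and WT1 loci also fell, by 0.39 and 0.51 on the log2 scale. SALL1 was not called with equal lists. Of the 12 loci 3 were higher and 3 lower (without scaling 1 and 3, with equal lists 0 and 3). Of 25 proximal tubule loci tested 3 were higher and 2 lower (without scaling 0 and 2, with equal lists 2 and 3). LRP2, the endocytic receptor megalin, fell from 2383, 2245 and 2610 bases to 1536, 1332 and 1579 (log2 difference −0.67, limma adjusted p = 6.93e-07), near the 1726, 1641 and 1480 of WT. SLC4A4, the basolateral bicarbonate transporter of this tubule, rose from 8236, 8570 and 8359 to 10177, 9718 and 10433, and was not called without scaling. PAX8, a transcription factor that defines tubule cells, held a mean of 7653 bases in KO2 and differed in Rescue1 by −0.01 on the log2 scale. Markers of other cell types had larger shares called higher than all loci had, on few loci. Over their 4 lists 9 of 20 were higher and 2 lower, which became 5 and 1 without scaling and 3 of 19 and 3 with equal lists. NPHS1, which encodes the podocyte protein nephrin, rose from 477, 574 and 553 bases to 1777, 1407 and 1706 (log2 difference 1.44), with 2741, 2899 and 2687 in WT. The summed bases in KO2 and Rescue1 ran from 23039 to 23764 and 25690 to 25888 for 6 endothelial genes (3 higher, 1 lower), from 10434 to 10945 and 11382 to 11851 for 6 leukocyte genes (5 tested, 2 higher, 0 lower, MS4A1 at 0), from 13867 to 14111 and 15485 to 16019 for 5 podocyte genes (2 higher, 1 lower), and from 7385 to 8087 and 7925 to 8830 for 7 distal nephron genes (4 tested, 2 higher, 0 lower). Their part in the results was not tested, and a peak at a locus is not expression.

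Secreted signals held some of the larger changes. Of 25 cytokine and chemokine loci 4 were higher and 5 lower (without scaling 2 and 5, with equal lists 1 and 2 of 24). CXCL12, a chemokine that guides cell homing, fell from 2033, 2531 and 2035 bases to 596, 332 and 486 (log2 difference −2.03, SE 0.136, limma adjusted p = 5.79e-12) with 3 lost regions, and WT held 1160, 982 and 851. CXCL2 and CXCL8, which attract neutrophils, fell by 0.96 and 0.60, and CCL2, which attracts monocytes, by 0.51. CXCL8 and CCL2 were not called with equal lists. The fifth lower locus was CSF2, whose difference turned around with equal lists. The higher loci were IL11 (0.67), IL33 (0.37), TSLP (0.32) and CXCL16 (0.27). Of these, IL33, TSLP and CXCL16 were not called with equal lists. IL11 changed sign and was called lower in 1 of 15 alternative fits, and a region at its promoter was lost. In WT, however, CXCL2 and CXCL8 had means of 3199 and 2555 bases, no lower than the 2500 and 2454 of KO2. In the WNT pathway list 5 of 29 loci were higher and 5 lower, and both without scaling and with equal lists 2 were higher and 5 lower. The lower ones were led by the agonist RSPO2, which fell from 1786, 2194 and 2223 bases to 688, 503 and 698, with 306, 348 and 328 in WT, and included the receptor LGR5 and the inhibitors SFRP1 and SFRP2. The ligand WNT7A rose by 0.67, from a mean of 3001 to 4845 bases, with 7160 in WT. In the interferon response list 6 of 23 were higher (26.1%) and 1 lower (4.35%), close to and below the shares over all loci, led by OAS1, an antiviral RNA sensor (log2 difference 0.60, adjusted p = 7.16e-06). Without scaling these counts were 2 and 0, with equal lists 5 and 0.

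Receptors and matrix genes were mixed. Of 27 growth factor receptors and ligands 7 were lower and 5 higher. FGFR2, the epithelial FGF receptor, fell from 1713, 1645 and 1893 bases to 633, 652 and 505, away from the 4515, 4984 and 4864 of WT. KIT and PDGFD fell by 0.48 and 0.85, and ERBB2 rose by 0.36. Of 25 integrin and laminin loci 7 were higher and 6 lower, with LAMA5, an epithelial basement membrane chain, up by 0.53 and LAMA1 and ITGA8 down by 0.68 and 1.24. Among 24 collagens 6 were higher and 3 lower, led by COL22A1, which fell by 0.73. Among 26 axon guidance loci 6 were higher and 7 lower, with ROBO1 down by 0.98 and EPHB1 up by 0.37. Of 20 loci of H3K36 methylation enzymes and readers 4 were higher (20%, below the 24.8% of all loci) and 0 lower. NSD2, which places the dimethyl mark at the same lysine, rose from 3400, 2906 and 3027 bases to 4621, 5225 and 3903 (log2 difference 0.54, adjusted p = 6.89e-06). In the TGF-beta pathway list 6 of 23 were higher and 5 lower, in the HOX list 3 of 37 and 2, and among AP-1 factors 2 of 12 and 0. The share called higher in these 8 lists ran from 8.11% (HOX) to 28% (integrins and laminins), around or below that of all loci. The share called lower was 26.9% for axon guidance, 25.9% for growth factor receptors and ligands, 24% for integrins and laminins and 21.7% for TGF-beta. All of these exceeded the 8.66% of all loci. Collagens were at 12.5%, HOX genes at 5.41%, and the H3K36 list and AP-1 factors at 0%, and no test compared the lists. Without scaling the counts were 1 and 4 for growth factor receptors and ligands, 1 and 4 for integrins and laminins, and 0 and 1 for collagens. They were 1 and 3 for axon guidance, 1 and 0 for the H3K36 list, 0 and 2 for TGF-beta, and 0 and 0 for both HOX and AP-1. With equal lists the counts were 2 and 7 for growth factor receptors and ligands, 1 and 4 for integrins and laminins, 3 and 3 for collagens, 6 and 5 for axon guidance, 2 and 1 for the H3K36 list, 5 and 4 for TGF-beta, 2 and 4 for HOX and 1 and 0 for AP-1. Without KO2 replicate 3 integrins and laminins gave 1 and 5 and TGF-beta 2 and 4.

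**Figure D4:**
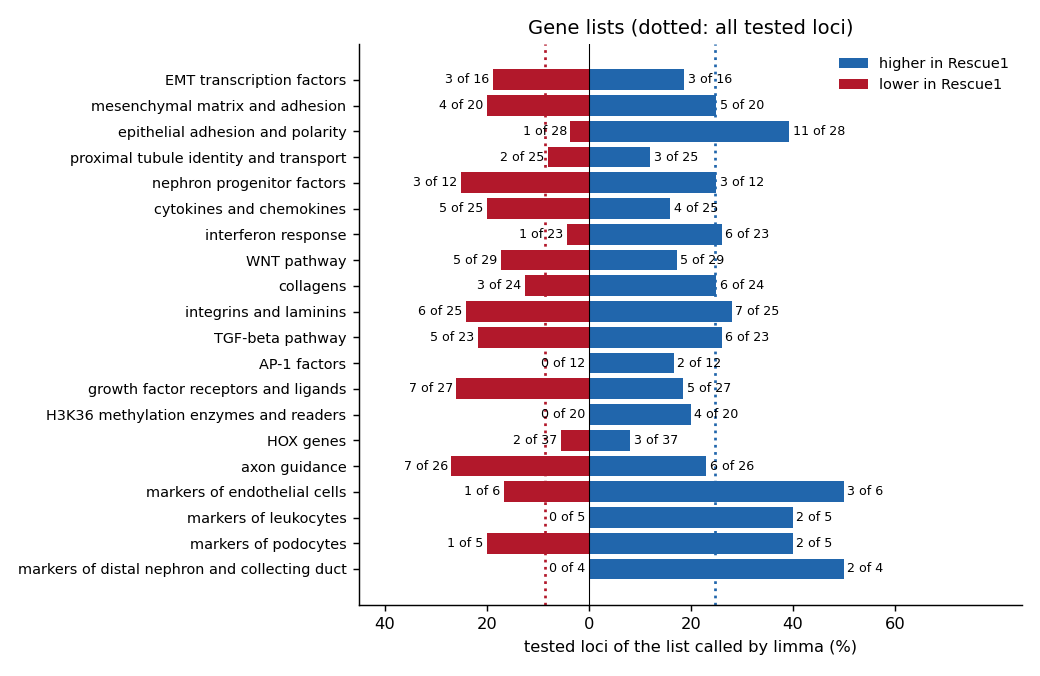
Percent of the tested loci in each of 20 gene lists that limma called higher (right, blue) or lower (left, red) in Rescue1 than KO2, with the counts beside the bars. Dotted lines mark 24.8% and 8.66% over all tested loci, and the list of epithelial adhesion and polarity genes has 11 of 28 higher and 1 of 28 lower.

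The sequence at the summits set gained and lost regions apart. In the 200 bp around each summit, 18 motifs were searched on both strands. The E-box CAGGTG, the form bound by the SNAI and ZEB repressors and by some activating basic helix-loop-helix factors, was present in 25.6% of gained, 9.48% of lost and 15.4% of all regions, and in 14.8% of those held by all 6 libraries. At least 2 copies were present in 3.59% of gained and 0.477% of lost regions. Of the 10 forms that CANNTG can take, the other 9 were each less frequent in gained than in lost regions. CAGCTG, for example, was found in 14.6% of gained, 16.7% of lost and 15.5% of all regions. Gained regions held by 3 of 3 WT libraries had CAGGTG in 33.3% of cases and those held by none in 20.6%. It was as frequent in gained promoter regions (25%) as in gained introns (25.7%) and intergenic regions (25.4%). Where present, it lay within 25 bp of the summit in 34.0% of gained, 23.3% of lost and 28.8% of all regions with the motif.

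These shares were looked at again in ways chosen after the motif had been seen. The order held in all 4 classes of GC content, for example with CAGGTG in 22.3% of gained, 8.78% of lost and 13.02% of all windows of 40% to 50% GC, and in 33.6%, 14.4% and 21.5% of those of 50% to 60% GC. Without windows that carried recurring 20-base strings the shares were 24.0%, 8.94% and 14.5%, and with equal lists 24.96%, 8.34% and 15.02%. It also held library by library over the 150000 best peaks, with no call of regions. CAGGTG was found in 15.9% ± 0.034 of Rescue1 peaks and 13.5% ± 0.062 of KO2 peaks, in 16.1% ± 0.11 of Rescue2 and 13.1% ± 0.034 of KO1 peaks, and in 16.7% ± 0.056 of WT peaks (SD, n = 3 each). Neither pair of groups overlapped (exact permutation test, two-sided, p = 0.1, the smallest this design allows). Gained regions that Rescue2 also held in 3 of 3 libraries had the motif in 29.4% of cases, against 17.05% of those it held in none.

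The strongest gained regions with 2 copies, absent from KO1 and present in 3 of 3 WT and Rescue2 libraries, are shown with CAGGTG or its reverse complement in capitals. They lie between genes at chr9:83220106-83220255, 46954 bp from the start of FRMD3, and in the promoter of FAM178B at chr2:96895803-96895952, both on the plus strand of hg38.
Gained, near FRMD3: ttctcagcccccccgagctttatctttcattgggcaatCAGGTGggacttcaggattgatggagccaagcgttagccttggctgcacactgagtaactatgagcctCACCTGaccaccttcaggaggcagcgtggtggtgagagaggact
Gained, FAM178B promoter: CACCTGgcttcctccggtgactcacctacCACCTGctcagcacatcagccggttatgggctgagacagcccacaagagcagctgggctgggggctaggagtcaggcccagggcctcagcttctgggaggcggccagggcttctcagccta
A match is a string in the window and does not show that any factor was bound.

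Other motifs were more frequent in lost than in gained regions. The C/EBP motif TTGCNNAA, bound by a family of factors active in inflammation and differentiation, was found in 16.8% of lost, 7.504% of gained and 10.0% of all regions. NF-kB motifs were found in 11.6%, 4.88% and 7.42%, the octamer ATGCAAAT of POU factors in 3.53%, 0.80% and 1.39%, and the RUNX motif TGTGGTT in 10.3%, 7.48% and 8.04%. In lost regions the NF-kB motif was more frequent where 3 of 3 WT libraries held a peak (15.6%) than where none did (8.88%). Per library it was found in 7.26% ± 0.023 of Rescue1, 8.34% ± 0.062 of KO2, 7.72% ± 0.039 of Rescue2, 8.06% ± 0.13 of KO1 and 8.84% ± 0.077 of WT peaks (SD, n = 3 each), so both rescues lay below the knockouts and WT above them. When present in a lost region, it lay within 25 bp of the summit in 50.3% of cases, against 39.8% over all regions. Per library C/EBP motifs were found in 8.67% ± 0.032 of Rescue1 and 10.1% ± 0.075 of KO2 peaks, and in 8.92% ± 0.027 of Rescue2 and 10.8% ± 0.077 of KO1 peaks (SD, n = 3 each). WT peaks, at 9.85% ± 0.082, lay between the rescues and the knockouts. Lost regions held by 3 of 3 WT libraries had the C/EBP motif in 21.0% of cases, and those held by none in 14.5%. AP-1 motifs were found in 31.6% of gained, 29.7% of lost and 29.5% of all regions. Within each of the 4 GC classes they were more frequent in gained than in lost regions, with 44.5% against 38.6% below 40% GC, 35.2% against 31.9% from 40% to 50%, 27.3% against 21.5% from 50% to 60% and 15.6% against 5.18% above. Per library Rescue1 was below KO2 (33.9% ± 0.54 and 34.5% ± 0.026, SD, n = 3 each) and Rescue2 above KO1 (34.1% ± 0.11 and 32.6% ± 0.47). WT, at 30.2% ± 0.16, lay below both knockouts and both rescues. The TEAD motif GGAATG differed little, at 16.05%, 14.96% and 15.07%. Motifs tied to promoters and insulators were rare on both sides. The SP and KLF motif GGGCGGG was found in 3.40% of gained and 1.75% of lost regions against 5.17% of all, and CTCF motifs in 1.73% and 0.54% against 2.65%.

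Lost regions that both WT and Rescue2 lacked in 3 of 3 libraries and KO1 held in 3 of 3 are shown as examples, again from the plus strand of hg38. The C/EBP motif is in capitals in an exon of CREBRF at chr5:173123544-173123693, and the octamer between genes at chr9:103993333-103993482, 100680 bp from the start of SMC2. The motifs can share bases with each other in other windows.
Lost, CREBRF: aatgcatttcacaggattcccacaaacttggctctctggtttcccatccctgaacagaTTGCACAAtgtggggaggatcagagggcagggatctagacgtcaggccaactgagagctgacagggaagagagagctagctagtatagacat
Lost, near SMC2: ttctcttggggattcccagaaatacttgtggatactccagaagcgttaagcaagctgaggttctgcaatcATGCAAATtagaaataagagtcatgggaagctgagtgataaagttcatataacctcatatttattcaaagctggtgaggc
Gained and lost regions also differed in base composition, with a median GC content of 48.5% and 45.5%, and 47.5% over all regions. The share of regions lost fell from 5.64% below 40% GC and 6.27% from 40% to 50% GC to 3.87% and 1.47% in the classes above.

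**Figure D5:**
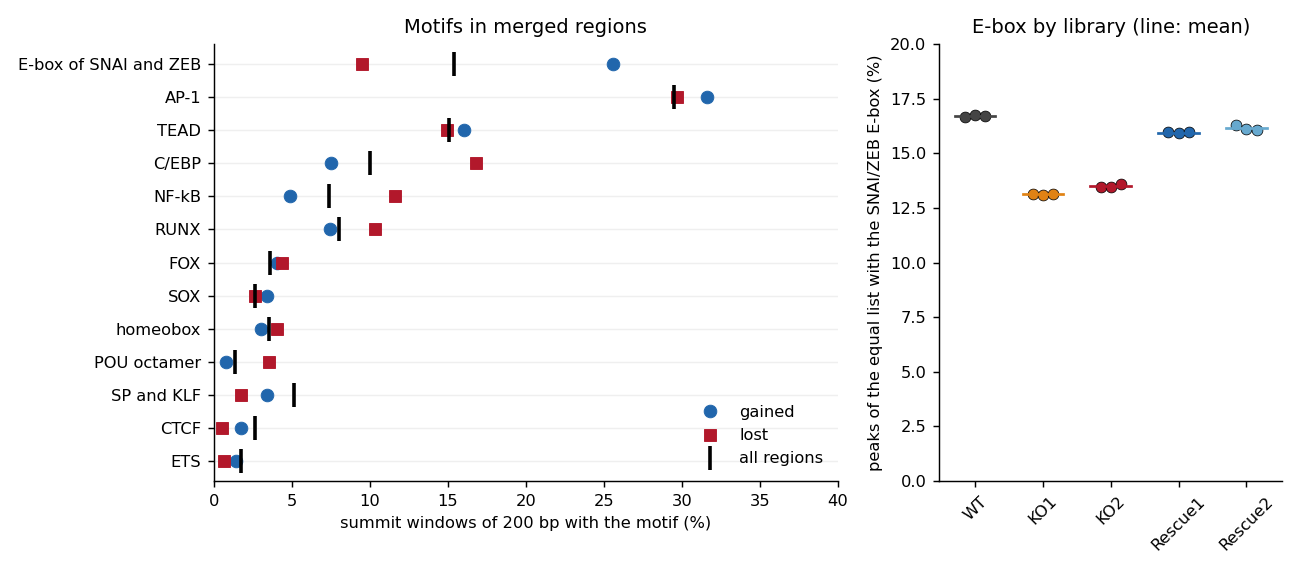
Left, percent of 200 bp summit windows with each motif among gained (circles), lost (squares) and all regions (ticks). Right, percent of the 150000 best peaks of each library with the CAGGTG E-box, with points for libraries and lines for means, where Rescue1, Rescue2 and WT lie above KO1 and KO2.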

How the data were processed

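ATAC-seq was carried out on RPTEC clones, and reads were aligned to hg38 by the authors with BWA (0.7.17 in the submitters' processing notes, another version in the study's methods). The authors called peaks with MACS2 2.2.7.1 in each library separately and deposited for each peak a whole-number score, a fold enrichment ratio, −log10 p and −log10 q. The lists hold no read counts, so depth per library cannot be read from them and the number of peaks stands in for it. The study reports sequencing depth metrics in its supplement, which were not used here. DiffBind 2.14.0, used by the authors, was not run here.

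Only peaks on the assembled nuclear chromosomes were kept, and those sharing at least 1 bp were merged with Python 3.11.15 and pandas 2.3.3. Regions were placed with GENCODE release 44, promoters first (1000 bp from a protein-coding start), then exons and introns. Bases under peaks per protein-coding locus (body plus 10000 bp on each side) were scaled to equal totals, and log2(bases + 100) was tested with limma 3.58.1 (R 4.3.3, trend, Benjamini-Hochberg over all loci with a mean of at least 500 bases), after a test on simulated data. The pseudocount makes fold changes of low loci smaller. List-wide measures were compared by exact permutation tests over libraries. The loci named were taken from the 10 with the smallest p in each direction, the 10 genes with the most gained or lost regions, and, from 20 gene lists of 403 genes, called members and up to 3 uncalled members per list with the smallest p. Regions named were the 10 best-ranked in each direction and the 5 best matching WT. SETD2 was always given. CDH1, CDH2, SNAI1 and PAX8, the windows and the regions shown for their motifs fall outside this rule and were picked once their values were known. A few items that the rule names are not reported here. The comparison, the lists and the motifs were chosen with earlier results of these data known.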

Additional observations from a re-analysis of the deposited data

Results flagged for a closer look

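At 8 of the 103 named loci whose libraries did not overlap in either pair of clones, the difference between Rescue2 and KO1 ran against that between Rescue1 and KO2, and this opposition was not tested. The largest were AUTS2, with a log2 difference of 3.33 (Rescue2 minus KO1) against −3.19 (Rescue1 minus KO2), and MALRD1, with −2.20 against 1.75. The others were smaller. Rescue2 minus KO1 was −0.29 at CLDN10, 0.15 at COL22A1, −0.0695 at IGF1R, −0.0699 at LAMB2, 0.14 at PLXNA4 and 0.17 at UNC5B.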

How the results depend on the processing

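Equal lists gave 9324 lost regions, 30.6% of gained regions in 3 of 3 WT libraries, 53.0% of lost regions in none and 2598 loci higher. Calling a region from 2 of 3 libraries gave 15993 gained and 28862 lost regions, with WT shares of 18.3% and 59.95% and promoters at 6.68% of the lost. Promoters made up 11.9% of gained regions at −log10 q of at least 5 and 11.7% with regions merged over all 15 libraries. Loci called higher numbered 1735 without scaling and 2539 without flanks, while loci called lower stayed between 1081 (no scaling) and 1804 (no filter on low loci).

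Leaving out 1 library gave 8606 to 11639 gained regions, the highest without KO2 replicate 3, and promoter shares of 12.48% to 13.7% (gained) and 6.13% to 6.66% (lost). Lost regions in no WT library ranged from 52.9% to 59.0%. The difference in length under peaks (Rescue1 minus KO2) ranged from −3.46 to 1.08 Mb, turning around without KO2 replicate 3. Lost regions numbered 16915 to 21849, all above the 15104 with all libraries, and gained regions reached 10800 without Rescue1 replicate 2. A rise in these counts follows from the rule, which is easier to meet with fewer libraries. Of the other summary values 111 stayed within 1.5 times (counts), 1 SD between replicates (values with no test) or on the same side of the test. Of 82 loci followed through every fit 65 kept their call and direction. At the other 17 a call ended in at least 1 fit, turned around (CSF2, 0.20 with equal lists) or appeared (SNAI1, lower without flanks at −0.63). Without scaling PDE4D (log2 difference −0.24) and 10 of the list members followed were not called (ZEB1, ZEB2, EPCAM, KRT18, SLC4A4, CLDN10, IGF1R, LAMB2, PLXNA4 and UNC5B). With equal lists 7 of those followed were not (SALL1, CXCL8, CCL2, IGF1R, LAMB2, PLXNA4 and UNC5B). The members followed were only a chosen part of those called. Of all 142 called list members, 86 were not called without scaling and 67 were not called or not tested with equal lists. The following of list members was added after the data were seen. Libraries with the same number did not deviate together (correlations −0.02, 0.04 and 0.05), and a fit with a replicate block gave 4290 loci higher and 1499 lower. The lists cannot show differences below the caller's threshold.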
